A study of Mus musculus with 6 samples.

Results

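The subunits of respiratory complexes II to V that are encoded in the nucleus were examined in whole hearts at embryonic day 13.5 (e13.5). Genes were taken by name from the gene symbols of the deposited tables: Sdha to Sdhd, all Uqcr genes, Cyc1, Cycs, Cox4 to Cox8 and all Atp5 genes, without pseudogenes. This gave 48 of the 45792 genes in the count table, with 4 in complex II, 10 in complex III and cytochrome c, 17 in complex IV and 17 in complex V. Of these, 47 passed the filter on low counts, as did 17125 genes in all. The exception was Cox7b2, an isoform of a small complex IV subunit, with 7, 6 and 9 counts in the control hearts and 31, 5 and 6 in the mutant hearts.

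The control group held 3 hearts whose labels give a wild-type genotype, and the mutant group held 3 Tie2Cre;Ino80 fl/fl hearts. The study's own text, however, counts every genotype other than the mutant one as control. The controls may therefore carry floxed alleles or a heterozygous deletion, which the labels do not show. Tie2Cre drives recombination in endothelial and endocardial cells, so that the floxed exon of Ino80, which encodes the ATPase of a chromatin remodeler, was to be removed from those cells while cardiomyocytes kept both copies. The labels give C57BL/6 as the strain of all hearts, whereas the study's methods describe its transgenic mice as of mixed background and embryos of both sexes as included without genotyping for sex. Each library came from 1 heart, and the question was how the cardiac transcriptome differs once endothelial Ino80 is lost.

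Oxidative phosphorylation joins the electron flow of the inner mitochondrial membrane to ATP synthesis. Complex II (succinate dehydrogenase) passes electrons from the citric acid cycle to ubiquinone, complex III hands them to cytochrome c, complex IV (cytochrome c oxidase) transfers them to oxygen and pumps protons, and complex V (ATP synthase) uses the proton gradient to make ATP. Complex II is wholly encoded in the nucleus, while the other complexes also hold subunits made from mitochondrial DNA, which are not among the genes taken here. Several small subunits of complex IV exist as a ubiquitous form and a form typical of heart and skeletal muscle, and the muscle forms accumulate as cardiomyocytes mature.

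The libraries held between 28948836 and 89675692 counts, a 3.10-fold range, and every pair of hearts within a group differed by more than counting noise (chi-square per degree of freedom of at least 14.4). The subunit genes took 1.80 to 2.22% of all counts in control hearts and 1.70 to 1.85% in mutant hearts. Mitochondrially encoded genes took 6.31 to 7.86% in control hearts and 6.12 to 7.11% in mutant hearts, and globin genes took 0.942 to 3.77% and 0.661 to 1.15%, respectively. Ino80 stood at 30.2, 31.6 and 32.8 CPM (counts per M counts, with library totals scaled by TMM) in control hearts and at 36.5, 33.7 and 31.8 CPM in mutant hearts, with a log2 fold change of 0.11 (SE 0.08, adjusted p = 0.473 in edgeR's quasi-likelihood test). These counts cover the whole gene in whole hearts and therefore do not check the deletion of 1 exon in endothelial cells, and the hearts are named by their labels.

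Most subunit genes lay below the control level in mutant hearts by a small amount, and none passed the test across all genes. The log2 fold change of mutant over control was below 0 for 45 of 47 genes, against 50.3% of all tested genes. Its median was -0.26, with a range of -1.07 to 0.35, beside a median of -0.0017 over all genes. At an adjusted p of 0.05, edgeR called 0 subunit genes (0% of all genes were called lower and 0% higher), with 0.0833 as the lowest adjusted value. Before adjustment, 19 genes were lower at p under 0.05 (background 9.98%) and 1 was higher (background 9.48%). In 12 genes all 3 mutant hearts lay below all 3 control hearts (background 12.8%), and in 1 gene they lay above them (background 14.3%). DESeq2 called 2 genes lower, Cox8b and Cox7a1, and 0 higher (3.26% and 2.52% of all genes).

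Of the 12 genes without overlap, 2 were in complex II, 3 in complex III with cytochrome c, 4 in complex IV and 3 in complex V. These were Sdha, Sdhb, Uqcrb, Uqcrc2, Cycs, Cox4i2, Cox7a1, Cox7a2l, Cox8b, Atp5c1, Atp5f1 and Atp5j. In whole hearts, fewer cells of a type and less RNA per cell cannot be told apart.

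The hearts of a group were not alike, and the counts above turned on single hearts. Control replicate 2 was the highest of the 6 hearts in 40 of 47 genes, and mutant replicate 1, also the most deeply sequenced heart, was the lowest in 35. Control replicate 1 was the lowest control heart in 45 genes and lay below the highest mutant heart in 35. Without control replicate 1, the genes without overlap numbered 42 (20.1% of all genes were lower without overlap in those hearts) and those lower at an unadjusted p under 0.05 numbered 37 (background 11.5%). The adjusted test then called 3 of them, Cox8b, Cox7a1 and Uqcrh, among 751 genes in all. Without mutant replicate 1, only 3 genes had an unadjusted p under 0.05 (background 6.75%). Without control replicate 2, control replicate 3 or mutant replicate 2, the number was 5, 9 and 7 (background 7.33%, 8.55% and 7.22%). The median over the subunit genes moved to -0.15 when control replicate 2 was left out and to -0.38 when control replicate 1 was. When all libraries were thinned to the smallest total, 20 genes were lower at an unadjusted p under 0.05 (background 9.69%).

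**Figure D1:**
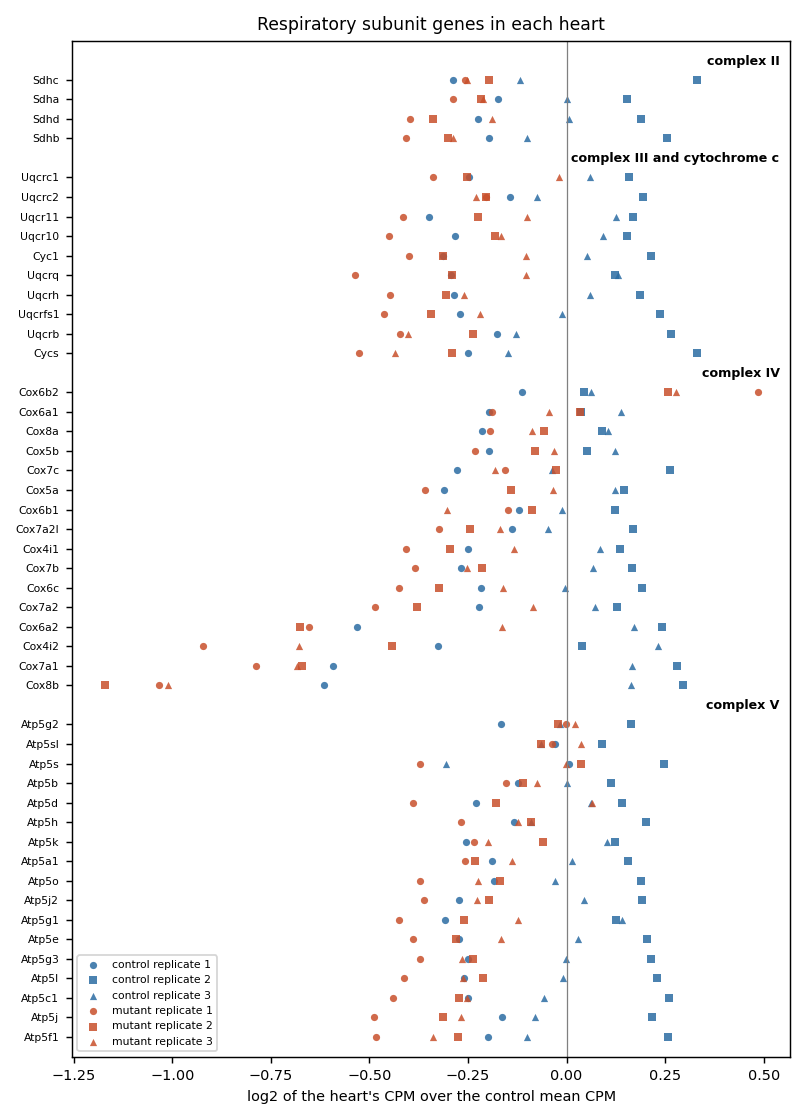
Each row is 1 of the 47 tested subunit genes, grouped by complex, and each point is 1 heart. The x axis is the log2 of that heart's CPM over the mean CPM of the 3 control hearts (blue, control; orange, mutant; circle, square and triangle for replicates 1, 2 and 3). Control replicate 2 was the highest heart in 40 genes, mutant replicate 1 was the lowest in 35, and control replicate 1 lay among the mutant hearts in many rows.

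The complexes lay at similar distances below the control level. The median log2 fold change was -0.27 in complex II, -0.28 in complex III with cytochrome c, -0.26 in complex IV and -0.25 in complex V, and these medians were not tested against each other. Without control replicate 2 they were -0.17, -0.19, -0.17 and -0.15. The spread between genes was widest in complex IV, from -1.07 to 0.35, and narrowest in complex II, from -0.33 to -0.24. As means of log2(CPM + 1) per heart, complex II stood at 8.38, 8.83 and 8.55 in control hearts and at 8.27, 8.34 and 8.37 in mutant hearts, which did not overlap. The corresponding means of complexes III, IV and V overlapped between the groups. Over all 47 genes the mean was 7.97 ± 0.211 (SD, n = 3 hearts) in controls and 7.72 ± 0.0872 in mutants, a difference of -0.25.

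**Figure D2:**
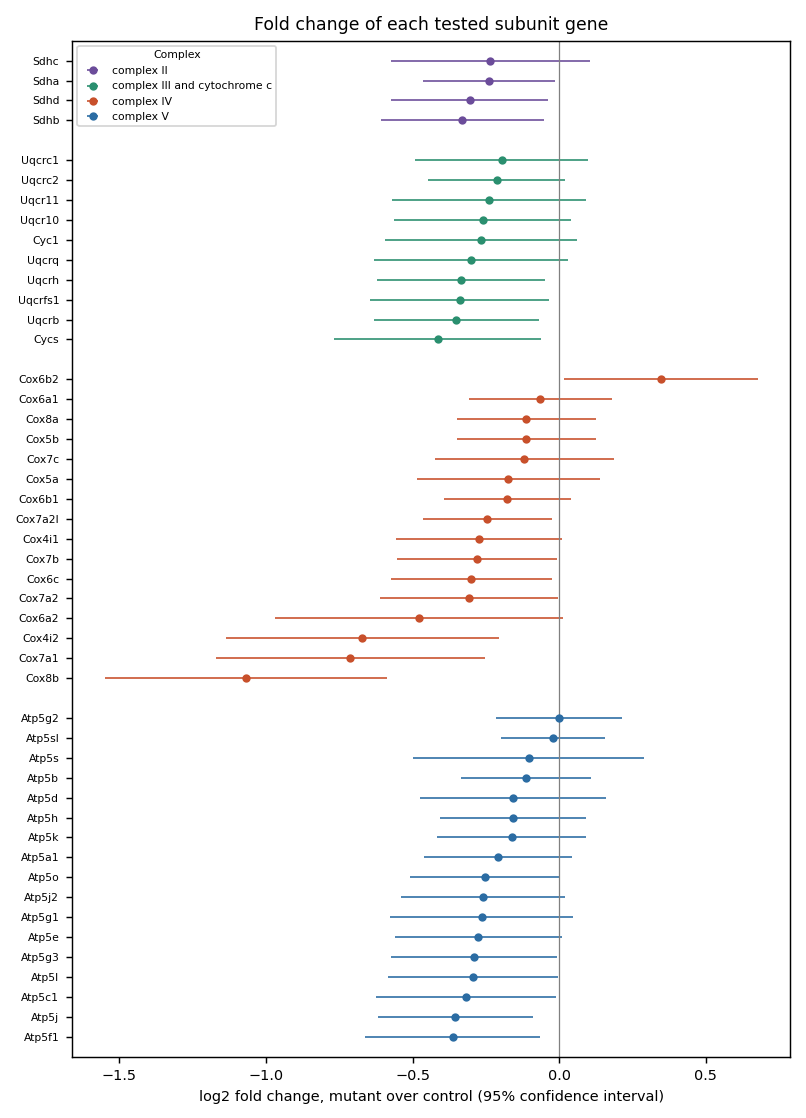
Log2 fold change of mutant over control (x axis) with its 95% confidence interval from edgeR's fit for the 47 tested genes, grouped and coloured by complex. Most points lay between -0.4 and 0, Cox8b lay lowest at -1.07, and Cox6b2 lay highest at 0.35.

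In complex II, all 4 genes had a log2 fold change below 0, 3 of them with an unadjusted p under 0.05. Sdhb, the iron-sulphur subunit, had the lowest p and the largest difference. It stood at 288, 393 and 307 CPM in control hearts and at 249, 267 and 270 CPM in mutant hearts, with a log2 fold change of -0.33 (SE 0.12, edgeR adjusted p = 0.198). The mutant hearts all lay below the controls and within a narrower range. Sdha, the flavoprotein that oxidises succinate, also had no overlap, with 526, 660 and 594 CPM against 486, 510 and 512 CPM. Sdhd, a membrane anchor, stood at 335, 446 and 393 CPM against 297, 309 and 344 CPM. Sdhc, the other anchor, had the smallest difference of the complex, at -0.24 (SE 0.15, edgeR adjusted p = 0.397). Its control hearts were at 242, 372 and 273 CPM and its mutant hearts at 247, 258 and 248 CPM, so that control replicate 1 was the lowest of all 6 hearts.

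In complex III and cytochrome c, all 10 genes lay below 0 and 4 had an unadjusted p under 0.05. Uqcrb, a small subunit near the ubiquinone site, had the lowest p, with 131, 177 and 135 CPM in control hearts and 110, 125 and 112 CPM in mutant hearts (log2 fold change -0.35, SE 0.12, edgeR adjusted p = 0.187). The groups did not overlap, although control replicate 1 and mutant replicate 2 were close to each other. Of the 876 exonic bases of Uqcrb, 50 are shared with Gm10767 on the opposite strand. Cycs, the soluble carrier that links complexes III and IV, had the largest difference, at 457, 682 and 490 CPM against 377, 444 and 401 CPM (log2 fold change -0.41, SE 0.15, edgeR adjusted p = 0.201). Control replicate 2 stood apart as the highest heart, and control replicate 1 lay just above mutant replicate 2.

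The remaining genes of complex III had log2 fold changes of -0.34 to -0.20. The Rieske protein gene Uqcrfs1, whose iron-sulphur cluster takes the first electron from ubiquinol, stood at 352, 501 and 421 CPM against 308, 335 and 364 CPM. Uqcrh, the hinge protein that sits by cytochrome c1, stood at 321, 444 and 407 CPM against 286, 316 and 326 CPM. In both, the highest mutant heart exceeded control replicate 1. Of the core proteins, Uqcrc2 had no overlap (514, 650 and 539 CPM against 492, 492 and 484 CPM), and Uqcrc1 had the smallest difference of the complex, at -0.20 (SE 0.13, edgeR adjusted p = 0.417). Uqcrc1 stood at 454, 601 and 561 CPM in control hearts and at 426, 452 and 532 CPM in mutant hearts. Exonic bases of Uqcrc2 overlap Pdzd9 on the opposite strand over 504 of 2552 bases.

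In complex IV, 15 of 16 tested genes lay below 0, 7 lower and 1 higher at an unadjusted p under 0.05. The 3 muscle isoforms had lower log2 fold changes than their 3 partners. Cox8b (ENSMUSG00000025488.8, chr7:140898945-140900446 on GRCm38, minus strand), the heart and muscle form of subunit 8, had the lowest p and the largest difference of all subunit genes. It stood at 28.8, 54.1 and 49.3 CPM in control hearts and at 21.5, 19.6 and 21.9 CPM in mutant hearts. The mutant hearts lay close together and below every control heart, of which control replicate 1 was the nearest. The mutant level was 0.477 of the control level (log2 fold change -1.07, SE 0.21, edgeR adjusted p = 0.0833, DESeq2 adjusted p = 2.35e-05). Without control replicate 1 the log2 fold change was -1.30 and passed edgeR's test (adjusted p = 0.00227), and without each of the other hearts in turn its adjusted p lay between 0.156 and 0.241.

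Cox7a1 (ENSMUSG00000074218.2, chr7:30184144-30186078, plus strand), the heart and muscle form of subunit 7a, was next. It stood at 35.1, 64.3 and 59.4 CPM in control hearts and at 30.6, 33.2 and 33.0 CPM in mutant hearts (log2 fold change -0.71, SE 0.20, edgeR adjusted p = 0.135, DESeq2 adjusted p = 0.0078). The groups did not overlap, but control replicate 1 lay just above the highest mutant heart and far from the other controls. Without it the log2 fold change was -0.94 and passed edgeR's test (adjusted p = 0.00448). When any other heart was left out, the edgeR adjusted p of Cox7a1 lay between 0.213 and 0.317. Cox6a2 (ENSMUSG00000030785.7, chr7:128205435-128206387, minus strand), the muscle form of subunit 6a, stood at 98.1, 168 and 160 CPM against 90.3, 88.8 and 127 CPM (log2 fold change -0.48, SE 0.21, edgeR adjusted p = 0.266). Here mutant replicate 3 lay above control replicate 1, and 70 of the 680 exonic bases are shared with Itgad on the opposite strand.

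Each ubiquitous partner had a log2 fold change closer to 0 than its muscle isoform. Cox8a, the partner of Cox8b, stood at 332, 410 and 414 CPM in control hearts and at 336, 370 and 362 CPM in mutant hearts (log2 fold change -0.11, SE 0.10, edgeR adjusted p = 0.565). Cox6a1, the partner of Cox6a2, stood at 234, 275 and 295 CPM against 235, 274 and 260 CPM and had the smallest difference of complex IV (log2 fold change -0.06, SE 0.11, edgeR adjusted p = 0.761). In both genes the control and mutant hearts were interleaved, with control replicate 1 lowest. Cox7a2, the partner of Cox7a1, stood at 290, 370 and 356 CPM against 242, 260 and 320 CPM (log2 fold change -0.31, SE 0.13, edgeR adjusted p = 0.252). The median log2 fold change was -0.71 over the 3 muscle isoforms and -0.11 over their 3 partners. With offsets for exonic length, Cox8a and Cox6a1 moved to 0.08 and 0.11, Cox7a2 moved to -0.19, and Cox8b, Cox7a1 and Cox6a2 moved to -0.79, -0.49 and -0.31.

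The isoforms were then compared with their partners within each heart, as the log2 ratio of the CPM of both genes with 0.5 CPM added. This removes what both genes of a pair share in a heart, such as scaling. The exact two-sided permutation test over 3 against 3 hearts cannot give a p below 0.1, and 7 pairs were tested. The log2 ratio of Cox8b to Cox8a was -3.50, -2.91 and -3.06 in control hearts and -3.94, -4.21 and -4.02 in mutant hearts. All mutant hearts lay below all control hearts, with a difference of -0.90 (exact permutation p = 0.1, adjusted over the 7 pairs 0.175). Per kilobase of the principal transcript, Cox8b made up 14.6 ± 2.63% of the summed level of both isoforms in control hearts and 8.27 ± 0.732% in mutant hearts (SD, n = 3 hearts).

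The other muscle isoforms were less apart from their partners. The log2 ratio of Cox6a2 to Cox6a1 was -1.25, -0.71 and -0.88 in control hearts and -1.37, -1.62 and -1.03 in mutant hearts, a difference of -0.40 with overlap (exact permutation p = 0.2, adjusted 0.28). The log2 ratio of Cox7a1 to Cox7a2 was -3.03, -2.52 and -2.57 against -2.96, -2.95 and -3.26, a difference of -0.35 with overlap (exact permutation p = 0.3, adjusted 0.35). In both pairs control replicate 1 had the lowest control ratio and lay among the mutant hearts. The share of Cox6a2 was 30.4 ± 3.98% in control hearts and 25.0 ± 3.86% in mutant hearts, and that of Cox7a1 was 20.4 ± 3.11% and 16.6 ± 1.64%, respectively.

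Isoforms at low levels lay on both sides of the control level. Cox4i2, the hypoxia-related form of subunit 4, stood at 4.28, 5.52 and 6.30 CPM in control hearts and at 2.83, 3.95 and 3.35 CPM in mutant hearts (log2 fold change -0.67, SE 0.20, edgeR adjusted p = 0.153). Its partner Cox4i1 stood at 510, 666 and 643 CPM against 457, 494 and 552 CPM (log2 fold change -0.27, SE 0.12, edgeR adjusted p = 0.267), with 154 of its 1550 exonic bases shared with Emc8 on the opposite strand. Cox4i2 had no overlap between the groups and Cox4i1 did. The difference of their log2 ratio was -0.32 (exact permutation p = 0.1, adjusted 0.175) and was -0.18 with 2 CPM added in place of 0.5. Cox6b2, a form of subunit 6b known from testis, was the one subunit gene that was higher in all mutant hearts, at 3.97, 4.43 and 4.48 CPM against 6.00, 5.12 and 5.20 CPM (log2 fold change 0.35, SE 0.14, edgeR adjusted p = 0.239). Its ubiquitous partner Cox6b1 stood at 305, 361 and 328 CPM against 299, 312 and 269 CPM (log2 fold change -0.18, SE 0.09, edgeR adjusted p = 0.335), and the ratio of both differed by 0.49 (exact permutation p = 0.1, adjusted 0.175). Cox6b2 nevertheless made up only 1.35 ± 0.0700% of the pair in control hearts and 1.93 ± 0.197% in mutant hearts. Cox7b2 stood at no more than 0.34 CPM in any heart, whereas its partner Cox7b stood at 275, 372 and 347 CPM against 254, 286 and 278 CPM (log2 fold change -0.28, SE 0.12, edgeR adjusted p = 0.246).

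**Figure D3:**
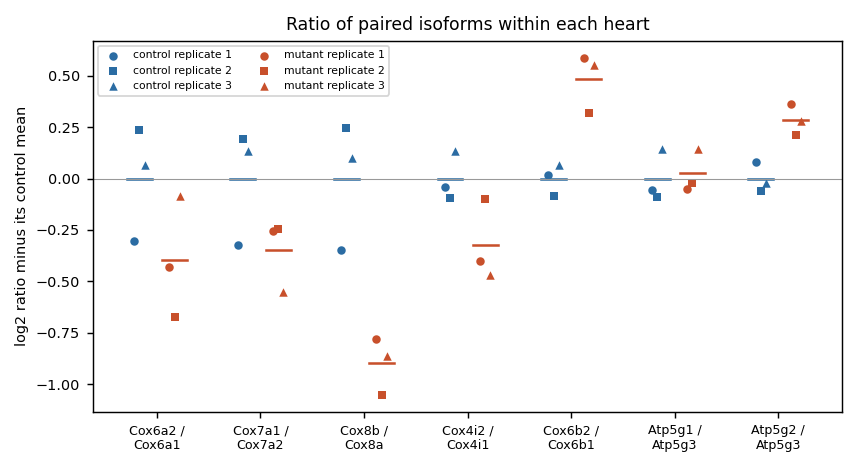
Log2 ratio of an isoform to its partner in each heart, drawn as its difference from the mean of the 3 control hearts (y axis), for the 7 tested pairs. Points are hearts (blue, control; orange, mutant; symbols give the replicate) and bars are group means; the mutant mean of Cox8b over Cox8a lay 0.90 below the control mean and that of Cox6b2 over Cox6b1 lay 0.49 above it, both without overlap.

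Of the remaining complex IV genes, Cox5a, Cox5b, Cox6c, Cox7a2l and Cox7c all had log2 fold changes below 0, from -0.30 to -0.11. Cox6c stood at 337, 447 and 391 CPM against 291, 313 and 350 CPM and had an unadjusted p of 0.0366 in edgeR's fit. Cox7a2l, a relative of Cox7a2 that joins complexes III and IV into supercomplexes, had no overlap, with 209, 259 and 223 CPM against 184, 194 and 205 CPM. Cox5a and Cox5b, which lie near the matrix side of the enzyme, and Cox7c were less apart, at -0.17, -0.11 and -0.12. Without the 6 tissue isoforms the median of complex IV was -0.18, with 11 of 11 genes below 0 and 1 without overlap.

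Promoter sequence was compared for the 2 muscle isoforms without overlap between the groups and their partners. Windows from 250 bases before to 50 bases after the start were taken from RefSeq (GRCm38.p6) and were matched for 38 of 48 genes. No window was used here for Atp5a1, Cox4i1, Cox4i2, Cox6a2, Cox6c, Cyc1, Sdhc, Uqcrb, Uqcrc2 and Uqcrq. The windows of Cox8b (chr7:140900397-140900696, minus strand), Cox8a (chr19:7217567-7217866, minus strand), Cox7a1 (chr7:30183921-30184220, plus strand) and Cox7a2 (chr9:79759804-79760103, minus strand) are shown 5′ to 3′, with each CG dinucleotide in capitals.
Cox8b: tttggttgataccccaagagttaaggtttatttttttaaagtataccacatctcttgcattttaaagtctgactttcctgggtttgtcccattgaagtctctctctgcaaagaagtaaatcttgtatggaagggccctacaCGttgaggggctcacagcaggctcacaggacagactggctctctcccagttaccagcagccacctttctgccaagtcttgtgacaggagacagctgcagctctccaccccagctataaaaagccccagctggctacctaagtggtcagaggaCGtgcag
Cox8a: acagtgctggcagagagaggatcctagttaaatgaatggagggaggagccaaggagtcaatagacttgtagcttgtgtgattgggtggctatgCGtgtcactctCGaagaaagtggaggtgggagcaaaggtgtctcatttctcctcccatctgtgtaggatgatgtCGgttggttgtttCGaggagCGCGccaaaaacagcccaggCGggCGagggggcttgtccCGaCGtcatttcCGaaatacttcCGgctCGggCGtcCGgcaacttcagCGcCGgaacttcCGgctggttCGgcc
Cox7a1: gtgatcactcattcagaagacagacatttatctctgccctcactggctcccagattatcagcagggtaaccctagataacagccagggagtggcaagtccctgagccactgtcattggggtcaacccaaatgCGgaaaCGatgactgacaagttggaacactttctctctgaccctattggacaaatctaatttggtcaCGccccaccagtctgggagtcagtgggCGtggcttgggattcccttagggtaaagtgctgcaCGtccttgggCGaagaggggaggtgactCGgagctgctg
Cox7a2: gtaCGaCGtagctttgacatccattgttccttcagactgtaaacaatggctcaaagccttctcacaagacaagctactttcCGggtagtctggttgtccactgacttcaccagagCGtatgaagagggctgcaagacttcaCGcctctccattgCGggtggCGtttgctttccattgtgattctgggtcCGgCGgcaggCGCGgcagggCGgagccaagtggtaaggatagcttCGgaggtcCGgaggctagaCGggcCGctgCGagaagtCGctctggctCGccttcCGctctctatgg

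The windows of the muscle isoforms held few CG dinucleotides and those of their partners many, with 2 in Cox8b against 19 in Cox8a and 7 in Cox7a1 against 20 in Cox7a2. The median was 19 over the 38 subunit genes with a window and 7 over all 32817 windows, of which 51.4% held 7 or fewer. Cox8b had the lowest number of the 38 genes, while Cox7b, a ubiquitous form whose log2 fold change was -0.28, followed with 5.

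Motifs of factors known to act on respiratory genes were counted on both strands of the same windows. Nuclear respiratory factor 1 (NRF1, letters GCGCA and GCGC with any 1 base between them) was matched in 23.8% of the 42 subunit windows and 4.59% of all windows, and the ETS motif that GABP binds (CCGGAAG) in 28.6% and 8.86%. The motifs of estrogen-related receptors (AAGGTCA) and of YY1 (AAGATGGC) were each matched in 11.9% of the subunit windows, against 4.72% and 2.74% of all windows. The MEF2 motif (CTA and TAG with any 4 bases between them) was matched in 2.38% and 3.69%, respectively. Both the NRF1 and the ETS letters hold CG, of which the subunit windows had more than other windows. In the Cox8a window above, the ETS letters lie on the opposite strand from base -5 to base 2 and from base 33 to base 39, counted from the start, with no match to any of the 5 motifs in the windows of Cox8b, Cox7a1 and Cox7a2. A match is a description of letters and not of binding.

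In complex V, 16 of 17 genes lay below 0, 5 of them with an unadjusted p under 0.05, and none was higher at that level. Atp5j, coupling factor 6 of the peripheral stalk, had the lowest p. It stood at 271, 353 and 287 CPM in control hearts and at 216, 244 and 252 CPM in mutant hearts (log2 fold change -0.35, SE 0.12, edgeR adjusted p = 0.169), without overlap. Of its 3130 exonic bases, 397 are shared with Gabpa on the opposite strand. Atp5f1, which encodes the b subunit of the same stalk, had the largest difference, at 575, 789 and 616 CPM against 472, 545 and 522 CPM (log2 fold change -0.36, SE 0.13, edgeR adjusted p = 0.191). It had no overlap either, and shares 337 of 4105 exonic bases with Wdr77 on the opposite strand. Atp5c1, the gamma subunit that forms the central stalk, was the third gene of the complex without overlap, at 528, 752 and 603 CPM against 463, 520 and 527 CPM.

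The genes of the F1 part had log2 fold changes from -0.32 in Atp5c1 to -0.11 in Atp5b. Atp5b, the beta subunit that holds the catalytic sites, was the most abundant subunit transcript at 3219, 3788 and 3510 CPM in control hearts and 3150, 3246 and 3329 CPM in mutant hearts (log2 fold change -0.11, SE 0.10, edgeR adjusted p = 0.533). Atp5a1, the alpha subunit, stood at 2201, 2793 and 2532 CPM against 2099, 2135 and 2280 CPM (log2 fold change -0.21, SE 0.11, edgeR adjusted p = 0.327). In both, control replicate 1 lay among the mutant hearts. The 2 remaining F1 subunits, Atp5d and Atp5e, had log2 fold changes of -0.16 and -0.28. The other subunits of the membrane part and stalk, Atp5h, Atp5j2, Atp5k, Atp5l and Atp5o, lay between -0.29 and -0.16.

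Subunit c, which forms the rotating ring, is encoded by 3 genes whose mature proteins are the same. Atp5g3 stood at 786, 1086 and 934 CPM in control hearts and at 723, 793 and 778 CPM in mutant hearts (log2 fold change -0.29, SE 0.12, edgeR adjusted p = 0.248). Atp5g1 stood at 295, 398 and 403 CPM against 272, 305 and 335 CPM (log2 fold change -0.26, SE 0.14, edgeR adjusted p = 0.32). Atp5g2 had the smallest difference of complex V, at 209, 262 and 232 CPM against 234, 231 and 238 CPM (log2 fold change 8.16e-06, SE 0.09, edgeR adjusted p = 0.9999). The mutant hearts of Atp5g2 lay within the range of its control hearts, and with RLE size factors or DESeq2 its value was slightly below 0.

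Within hearts, the log2 ratio of Atp5g2 to Atp5g3 was -1.91, -2.05 and -2.01 in control hearts and -1.63, -1.78 and -1.71 in mutant hearts, a difference of 0.29 without overlap (exact permutation p = 0.1, adjusted 0.175). The ratio of Atp5g1 to Atp5g3 differed by 0.02 with overlap (exact permutation p = 0.6, adjusted 0.6). Per kilobase, Atp5g2 made up 19.9 ± 0.789% of the Atp5g2 and Atp5g3 sum in control hearts and 23.3 ± 0.951% in mutant hearts. Atp5s and Atp5sl, which the rule takes by name, are not structural subunits of the enzyme. Atp5s stood at 8.30 to 12.2 CPM in control hearts and 7.94 to 10.5 CPM in mutant hearts, and Atp5sl, named Dmac2 in GENCODE vM21, at 33.0 to 36.7 and 33.0 to 35.4 CPM. Their log2 fold changes were -0.10 and -0.02, and without them the median of complex V was -0.26.

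Levels also differed between genes of the same complex when compared per kilobase of the principal transcript. In control hearts the mean level was 93.2 to 318 CPM per kilobase in complex II, with Sdhc lowest and Sdhd highest, and 123 to 714 in complex III with cytochrome c, with Uqcrq lowest and Uqcrh highest. Among the ubiquitous forms of complex IV, the mean level ran from 214 in Cox7a2l to 792 CPM per kilobase in Cox4i1, while Cox8b, Cox7a1 and Cox6a2 stood at 122, 135 and 209. In complex V, Atp5b (1830 CPM per kilobase), Atp5g3 (1294) and Atp5a1 (1015) were the highest. The proteins of these 3 genes are present in several copies per enzyme. Where a gene had several principal transcripts of the same rank, the longest was used. Uqcrq and Sdhc, the lowest of their complexes, were thus taken at 1521 and 3171 bases, and their place depends on these lengths. The order depends on the length used: over all exonic bases Uqcr10 was the highest of complex III at 463 CPM per kilobase and Cox8a the highest of complex IV at 622.

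Other genes of the pathway were counted from lists, to be read against the shares of all genes given above (at an unadjusted p under 0.05, 9.98% lower and 9.48% higher; without overlap, 12.8% lower and 14.3% higher). Of 14 citric acid cycle genes other than Sdh, all had a log2 fold change below 0 (median -0.22), 6 were lower at an unadjusted p under 0.05 and 4 had no overlap. Sucla2, a subunit of succinyl-CoA synthetase, had the lowest p, at 215, 297 and 225 CPM against 184, 199 and 197 CPM (log2 fold change -0.34, SE 0.12, edgeR adjusted p = 0.192). The cycle feeds electrons to complex II and, through NADH, to complex I. Of 10 genes for carriers and outer membrane proteins, 9 lay below 0 (median -0.14), 2 were lower at an unadjusted p under 0.05 and 3 had no overlap. Atpif1, the inhibitor of ATP synthase, had the lowest p, at 104, 116 and 117 CPM against 81.0, 94.0 and 92.0 CPM (log2 fold change -0.33, SE 0.08, edgeR adjusted p = 0.111, DESeq2 adjusted p = 0.0236).

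Assembly factors insert cofactors and subunits and are not part of the finished enzymes. Of 37 listed for complexes II to V, 34 were tested and 26 lay below 0 (median -0.14). Of these 34, 5 were lower at an unadjusted p under 0.05 (background 9.98%), 0 were higher (background 9.48%), and 5 were lower without overlap (background 12.8%), so both counts of 5 are near the share over all genes. Ttc19, a complex III factor, had the lowest p, at 24.5, 27.9 and 25.3 CPM against 22.3, 21.9 and 21.02 CPM (log2 fold change -0.25, SE 0.08, edgeR adjusted p = 0.17). Regulators of respiratory genes lay on both sides of 0, with 8 of 16 below 0 (median -0.03), 2 lower and 2 higher at an unadjusted p under 0.05. Esrrb, an estrogen-related receptor, had the lowest p and was higher, at 13.6, 13.4 and 13.1 CPM against 16.98, 19.8 and 17.2 CPM (log2 fold change 0.43, SE 0.10, edgeR adjusted p = 0.0935, DESeq2 adjusted p = 0.0173). Ppara, which promotes fatty acid oxidation and is named here after its value was seen, was lower, at 8.28, 21.6 and 14.7 CPM against 6.73, 5.71 and 6.495 CPM (log2 fold change -1.23, SE 0.30, edgeR adjusted p = 0.109, DESeq2 adjusted p = 0.000699).

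**Figure D4:**
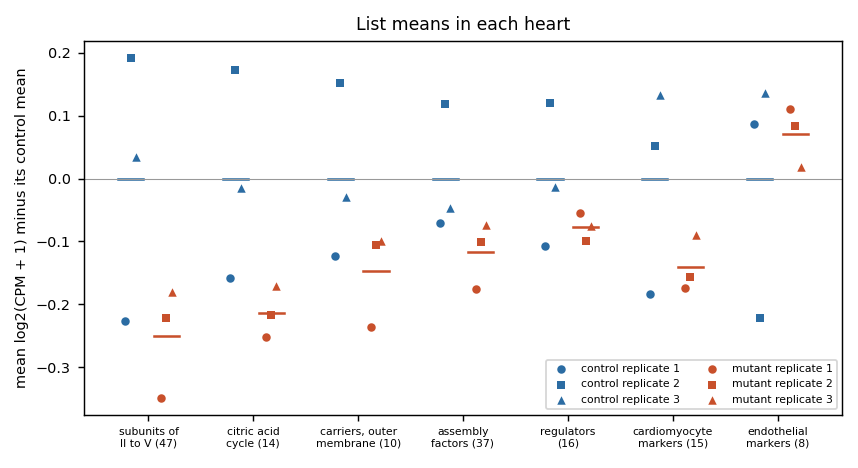
Mean of log2(CPM + 1) over each list in each heart, drawn as its difference from the mean of the 3 control hearts (y axis), for the subunit genes, 4 pathway lists and cardiomyocyte and endothelial markers, with the number of genes in parentheses. Points are hearts (blue, control; orange, mutant; symbols give the replicate) and bars are group means; the mutant mean of the subunit genes lay 0.25 below the control mean and that of the cardiomyocyte markers 0.14 below it, and control replicate 2 was the highest heart in all 5 of the gene lists and the lowest in the endothelial markers.

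Markers of the cells in these hearts were measured beside the subunit genes, and their counts are read against the same shares of all genes. Of 15 cardiomyocyte markers, 12 lay below 0 (median -0.17), 2 were lower and 2 higher at an unadjusted p under 0.05, and none was at 0 counts. Their summed level was 30030 to 36580 CPM in control hearts and 30030 to 31830 CPM in mutant hearts. The marker with the lowest p was Pln, the inhibitor of the calcium pump, at 1847, 2369 and 1786 CPM against 1360, 1317 and 1451 CPM (log2 fold change -0.54, SE 0.12, edgeR adjusted p = 0.0989, DESeq2 adjusted p = 0.000766). The 2 higher markers were Myh6 (log2 fold change 0.48, edgeR adjusted p = 0.18, DESeq2 adjusted p = 0.0398) and Myl4 (log2 fold change 0.30, edgeR adjusted p = 0.162, DESeq2 adjusted p = 0.0303). Neither had overlap between the groups. Subtracting the mean log2(CPM + 1) of the cardiomyocyte markers from that of the subunit genes left -2.59 ± 0.125 in control hearts and -2.70 ± 0.0567 in mutant hearts (SD, n = 3), which overlapped. Of 4 atrial markers, 3 lay above 0 and 2 were higher at an unadjusted p under 0.05. Their summed level was 364 to 661 CPM against 590 to 865 CPM. Myl7 led them (log2 fold change 0.69, SE 0.20, edgeR adjusted p = 0.139, DESeq2 adjusted p = 0.00721). Of 3 ventricular markers, 2 lay below 0, with 4354 to 5194 CPM against 4022 to 4564 CPM and Hey2 leading (log2 fold change -0.29, SE 0.09, edgeR adjusted p = 0.17). The part of these markers in the difference of the subunit genes was not tested.

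Markers of other cells varied as well. The 8 endothelial markers summed to 929 to 1215 CPM in control hearts and 1095 to 1147 CPM in mutant hearts, with 5 above 0 and none with an unadjusted p under 0.05 (Tie1 leading, log2 fold change 0.24, edgeR adjusted p = 0.352). The 10 erythroid genes summed to 9301 to 39410 against 6443 to 11460 CPM, with 5 lower and 3 higher at an unadjusted p under 0.05. Of the 10, 7 lay below 0 and 3 above. The lowest p was that of the embryonic globin Hbb-bh1 (log2 fold change 2.98, SE 0.31, edgeR adjusted p = 0.0645, DESeq2 adjusted p = 6.66e-23). The other 2 higher genes were Hbb-y (2.26, DESeq2 adjusted p = 0.0839) and Hba-x (2.03, DESeq2 adjusted p = 0.0462). The 5 lower genes were Hbb-bs, Hbb-bt, Alas2, Hba-a2 and Hba-a1, with log2 fold changes from -1.85 to -1.27. The 7 epicardial and mesenchymal markers summed to 1565 to 2474 against 1629 to 2178 CPM, with 5 above 0. Upk3b led them (log2 fold change 0.57, SE 0.12, edgeR adjusted p = 0.0833, DESeq2 adjusted p = 0.00114). The 4 smooth muscle markers were split, with 1 lower and 1 higher at an unadjusted p under 0.05. Cnn1 was higher (log2 fold change 0.48, SE 0.13, edgeR adjusted p = 0.13, DESeq2 adjusted p = 0.015). Myh11 was lower by a larger amount (log2 fold change -2.40, SE 0.66, edgeR adjusted p = 0.131, DESeq2 adjusted p = 0.0021). It stood at 0.604, 2.96 and 4.75 CPM in control hearts and at 0.498, 0.705 and 0.342 CPM in mutant hearts, with overlap. The 5 macrophage markers summed to 60.8 to 84.4 against 68.1 to 86.2 CPM, with 4 above 0 and Csf1r leading (log2 fold change 0.26, edgeR adjusted p = 0.349). Markers of liver, lung, skeletal muscle and brown fat, tissues that could be carried over in dissection, summed to at most 1.77, 0.034, 0.94 and 0.031 CPM in any heart. The brown fat list held 1 gene and the skeletal muscle list 4. Of these markers, Ttr of the liver list had a log2 fold change of -0.79 (edgeR adjusted p = 0.299) and Myog of the skeletal muscle list one of 0.49 (edgeR adjusted p = 0.441), both under 1 CPM. The part of these cells in the difference was not tested.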

How the data were processed

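RNA of whole e13.5 hearts, 3 from control and 3 from mutant embryos, was sequenced. The deposited counts per gene are raw: according to the study's methods, pairs of 76 bp were aligned by the authors with STAR 2.4.2a (GRCm38, GENCODE vM6), and summarizeOverlaps then gave the number of reads on each gene. The use of strand and the handling of reads on overlapping genes are not given in the sources used here, so counts of overlapping genes and close copies are uncertain. Of the authors' DESeq2 table, only gene symbols were used; its fold changes and p-values were not.

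The main test was edgeR 4.0.16 under R 4.3.3 (limma 3.58.1), with filterByExpr (minimum count 10, minimum total 15), TMM scaling, and a quasi-likelihood fit with condition as the only term over all 17125 genes, with Benjamini-Hochberg adjustment and a threshold of 0.05. The standard error is the log2 fold change over the square root of F. DESeq2 1.42.0 was an alternative, tested on 17318 genes after its own filtering. Isoform ratios used 0.5 CPM as pseudocount and exact two-sided permutation tests over hearts, and list means used log2(CPM + 1). The study's methods describe mutants of several litters with control embryos of the same litters, but the labels name no litter for these hearts, so litter was not a term. Gene positions, exonic lengths and overlaps came from GENCODE vM21 on GRCm38, in which all 48 genes had a match and 13 shared exonic bases with another gene. The steps were tested on simulated counts. With no change simulated, edgeR called 0 genes and DESeq2 called 13. With 200 genes changed 1.5-fold, edgeR recovered 28% of them with 7 false calls, and DESeq2 51.5% with 37. With 200 genes changed 2-fold, edgeR recovered 68% with 9 false calls, and DESeq2 73% with 42. Each simulated gene varied independently of the others, with the spread that edgeR estimated from these hearts. In the real hearts many subunit genes moved together, so these rates may not hold for them.

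The genes and lists were chosen with earlier results of these data known. Genes named with values were both genes of each isoform pair; in each complex those with the lowest p and the largest and smallest log2 fold change; those above 0 or failing the filter; the gene with the lowest p in each other list; and Ino80. Further genes, named in the text for completeness, were chosen after their values were seen. Alternatives were other scalings and filters, DESeq2, thinning, GC and length offsets, the replicate number as a block, other pseudocounts, and leaving out each heart. The common biological coefficient of variation was 0.15.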

Additional observations from a re-analysis of the deposited data

How the results depend on the processing

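The count of genes called over all genes was 0 and became 603 when all genes with at least 1 count were tested, 1000 with DESeq2, 14 with the replicate number as a block and 1 with GC offsets, and it was 0 to 751 when 1 heart was left out, the highest without control replicate 1. The subunit genes called lower were 2 with all genes of at least 1 count and 2 with DESeq2 (Cox8b and Cox7a1 in both), 0 with the block, and 0 to 3 without 1 heart. Those lower at an unadjusted p under 0.05 numbered 11 with library totals in place of TMM (7.15% of all genes), 28 with the block (10.5%) and 3 to 37 without 1 heart (6.75 to 11.5%), against 19 (9.98%). The 1 that was higher (Cox6b2) became 0 with all genes of at least 1 count, DESeq2, the block, thinning and GC offsets and 0 without any 1 heart. Those lower without overlap numbered 12 to 42 without 1 heart (16.5 to 20.1% of all genes, against 12.8% with all hearts), with 22 without mutant replicate 3 (18.5%). The replicate numbers did not pair the hearts: deviations from the group means of same-numbered hearts correlated at 0.0245, -0.0837 and -0.073, so the block is given here only, and it changed no other call. Library totals moved the median of all genes to 0.055.

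Some signs reversed. With length offsets Cox6a1, Cox6b1, Cox8a and Atp5k moved from -0.06, -0.18, -0.11 and -0.16 to 0.11, 0.0031, 0.0805 and 0.033. Atp5g2 moved to -0.0049 with RLE factors, -0.0032 with DESeq2 and -0.086 with GC offsets, and Atp5sl to 0.036 with library totals. Leaving out 1 heart gave -0.15 to 0.011 for Cox6a1, -0.24 to 0.033 for Cox7c, -0.076 to 0.0899 for Atp5g2, -0.24 to 0.036 for Atp5s, -0.052 to 0.027 for Atp5sl and -0.035 to 0.097 for the ratio of Atp5g1 to Atp5g3. Of 45 genes below 0, 38 stayed below 0 in every fit. Of 924 values of 62 single genes under the alternatives, 886 kept direction and side of the threshold, 21 newly passed it and 17 changed sign. The causes were not tested.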

Other observations

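Rows outside the naming rule that resemble its genes were looked at after their values were seen. Processed pseudogenes and retrocopies of respiratory subunits are intronless copies of the transcripts, and reads can be split between them and the parent gene. Cycs-ps2 stood at 61, 62 and 45 counts in control hearts and 28, 31 and 23 in mutant hearts (log2 fold change -1.55, SE 0.39, edgeR adjusted p = 0.117). Uqcrh-ps1 and Uqcrh-ps2 had log2 fold changes of -1.42 and -1.61 at under 2 CPM in every heart, and Atp5k-ps2 and Atp5l-ps2 of -1.30 and -0.64. These 5 were put together as the copies whose groups did not overlap, so the share over all genes (12.8%) is no measure for them. None passed the adjusted test. Because reads can be split with the parent genes, these rows are not independent of the subunit genes.

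More abundant copies showed the same direction with overlap. Cox6c2, listed as Gm6265, stood at 22.3, 25.2 and 14.2 CPM in control hearts and 4.92, 14.9 and 10.3 CPM in mutant hearts (log2 fold change -1.05, SE 0.37, edgeR adjusted p = 0.192). Atp5l2-ps stood at 53.3, 73.3 and 62.4 CPM against 41.2, 51.5 and 53.7 CPM, beside 197 to 307 CPM for Atp5l itself, and Atp5l-ps1 at 24.5, 38.5 and 31.0 CPM against 18.9, 25.8 and 23.3 CPM. Mutant replicate 1 was the lowest heart in both of these and in Cox6c2.

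Among intact genes outside the rule, Atp5mpl, a small ATP synthase subunit listed under an older name, stood at 169, 231 and 171 CPM against 140, 167 and 151 CPM (log2 fold change -0.32, SE 0.13, edgeR adjusted p = 0.242), without overlap. Cyct, the testis form of cytochrome c, had 5, 50 and 50 counts in control hearts and 24, 12 and 0 in mutant hearts, and Cox8c, the testis form of subunit 8, had 0 counts in every heart.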
